A study of Rattus norvegicus with 9 samples.

Results

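The chemokine system of the rat dorsal root ganglion (DRG) was examined in 57 of the 20194 genes in the deposited gene table. These were 34 chemokine ligands, 18 chemokine receptors and 5 atypical or scavenging receptors. A gene was taken by its symbol alone, which had to be Ccl, Cxcl, Ccr, Cxcr or Ackr followed by a number, or Cx3cl1, Cx3cr1, Xcl1, Xcr1 or Ccrl2. RNA-Seq covered the DRG of adult male Sprague Dawley rats in 3 groups of 3 libraries. Sham rats had the operation without the nerve lesion, SNI rats had spared nerve injury of the sciatic nerve, a model of neuropathic pain, and SNI + G15 rats had the injury and G15, an antagonist of the G protein-coupled oestrogen receptor GPER. G15 was given through an intrathecal catheter implanted on day 5 after SNI, in a vehicle of 2% DMSO per the labels. The labels name the sham and SNI libraries as controls for G15 without stating whether these rats had a catheter or the vehicle, so G15 and its delivery cannot be told apart in the comparison of SNI + G15 with SNI.

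Chemokines are small secreted proteins that guide leukocytes through receptors coupled to inhibitory G proteins, and their families (CC, CXC, CX3C and XC) are named for the spacing of the first cysteines. Atypical receptors bind chemokines without activating G proteins and take them up or carry them across cells. In the DRG after nerve injury, chemokines are known as products of neurons, satellite glia and macrophages, and some of them sensitise neurons directly.

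Levels are given as FPKM, fragments scaled by transcript length and library depth, which allows genes to be compared with each other. Differences between groups come from the estimated read counts, tested with edgeR's quasi-likelihood test over all 14305 genes that reached an FPKM of 1 in at least 1 of the 9 libraries, and a gene is described as called, risen or fallen when its Benjamini-Hochberg adjusted p was below 0.05. Of the 57 genes, 34 passed this filter and 23 did not. Among the 34, 10 were below an FPKM of 1 in every sham library. They passed only through the injured animals, which fixes the direction of most of them. Of these 10, Ccl1 and Cxcl1 reached it in SNI + G15 alone and Cxcl3 in SNI alone. Counts over the 34 are therefore given as descriptions beside the share of all genes. The libraries held from 18484557 to 18756736 estimated reads. Across all tested genes, libraries of the same group correlated at 0.982 to 0.986 and libraries of different groups at 0.95 to 0.982 (log2 values scaled by library size, across genes), and no library stood apart from its group. The labels' extraction text names macrophages in place of ganglia. The 12 sensory neuron markers examined summed to an FPKM of 13655 to 16689.7 in every library, far above the 560.2 to 1436 of the 15 macrophage markers. The methods and the supplementary list of animals give different numbers of rats per group for RNA-Seq, so it is not known whether a library came from 1 rat or from several, and p-values measure the spread between these libraries. In whole ganglia, fewer cells of a type and less RNA per cell cannot be told apart.

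Summed over the 57 genes, the FPKM was 199, 215 and 198 in the sham libraries, 385, 384 and 371 in SNI and 367, 357 and 352 in SNI + G15. Every injured library was above every sham library. The summed FPKM of the CXC ligands was between 50.5 and 56.1 in sham, between 159 and 166 in SNI and between 128 and 136 in SNI + G15, and that of the CC ligands between 71.8 and 88.6, 125 and 138, and 142 and 145 in the same order. From SNI to SNI + G15 the CXC sum was thus lower and the CC sum higher, each without overlap, a difference of sums that was not tested. The sums hide genes that went against them. Of 13 tested CC ligands, 2 were called higher (Ccl21 and Ccl6) and 2 lower. Of 10 tested CXC ligands, 2 were called higher (Cxcl14 and Cxcl1) and 5 lower. All 13 but Ccl24 have an effective length of at most 1000 bases, as do only Cxcl1, Cxcl9 and Cxcl17 of the 10. Short genes as a class were higher in SNI + G15 (below), and the part of length was not tested. The leading gene differed between the groups. In sham it was Ackr1, the atypical receptor of venules and red blood cells, at 46.6 ± 2.98 (mean ± SD, n = 3), followed by Ccl6 at 20.5 ± 2.48 and Ccl21 at 17.6 ± 3.23. From Ccl6 down through Ccl21, Cxcl16, Ccl2, Ccl27 and Cxcl13, the sham values of each gene overlapped those of the next. In SNI the leading gene was Cxcl13, which draws B cells into lymphoid follicles, at 69.0 ± 1.41, followed by Ccl2 at 51.9 ± 4.30, Ackr1 at 43.3 ± 2.81 and Ccl6 at 40.4 ± 1.32, of which the last 2 overlapped. In SNI + G15 it was Ccl6, a macrophage and neutrophil chemokine of rodents, at 54.9 ± 1.69, followed by Ackr1 at 47.2 ± 0.356, Ccl2 at 45.2 ± 2.65, Cxcl13 at 39.1 ± 1.73 and Cxcl14 at 34.0 ± 0.679. Cxcl14 had been at 0.680 ± 0.315 in sham.

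**Figure D1:**
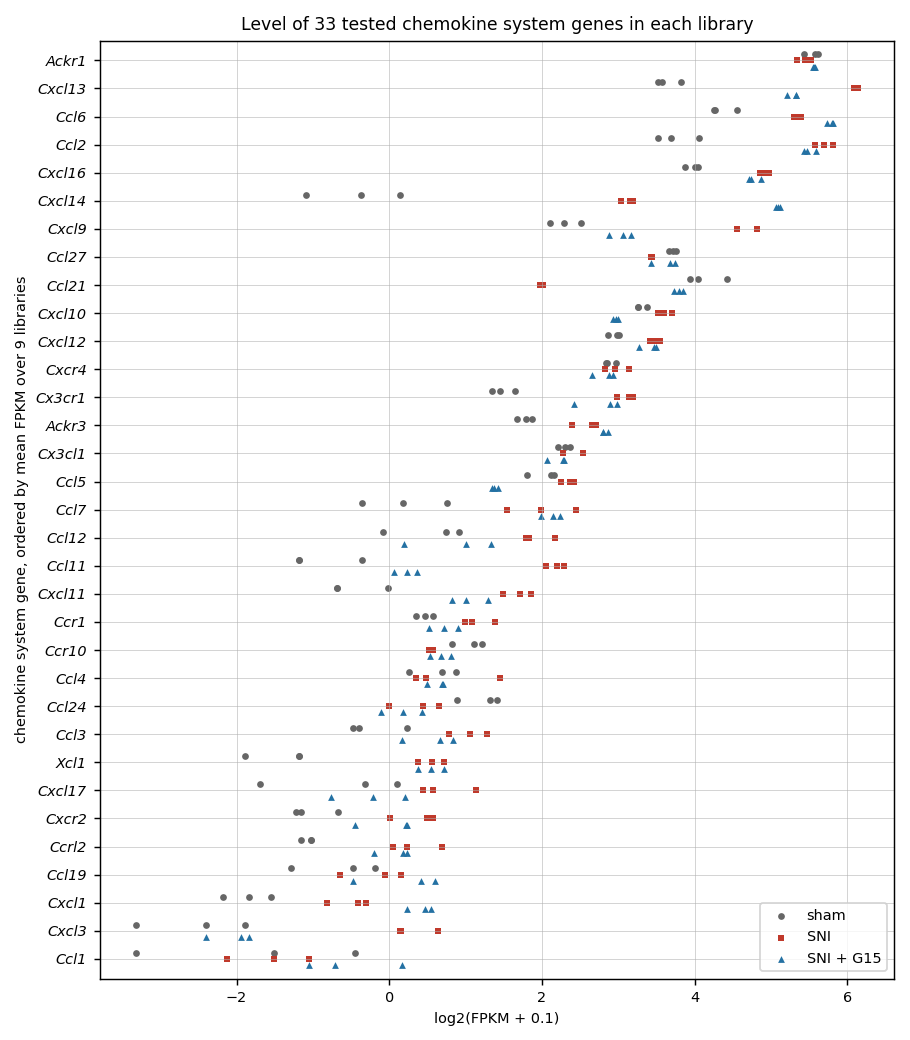
Level of 33 tested chemokine system genes in each of the 9 libraries, as log2(FPKM + 0.1), ordered by the mean FPKM over all libraries; grey circles are sham, red squares SNI and blue triangles SNI + G15. The SNI squares of Cxcl13, Cxcl9, Cxcl11, Ccl11 and Cxcl3 lie above both other groups, the SNI squares of Ccl21 lie below both, and Cxcl14 is separated into 3 steps.

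After injury, more chemokine system genes were called higher than lower. Of the 34 tested genes, 23 were higher in SNI than in sham, 4 were lower (Ccl21, Ccl24, Ccl27 and Ccr10) and 7 were not called (Ackr1, Ccl1, Ccl4, Ccl5, Ccl19, Cx3cl1 and Cxcr4). That is 67.7% higher and 11.8% lower, where 23.3% of all tested genes were higher and 22.4% lower. Without sham replicate 1 or sham replicate 3, the number lower was 2. A change of at least 1 on the log2 scale in a called gene was seen in 17 genes upward and 1 downward, against 4.07% and 0.839% of all genes. The median log2 fold change was 1.11 in the 34 genes and 0.0010 over all tested genes. The 3 values of the groups did not overlap in 24 genes upward and 4 downward, which happened in 31.1% and 22.8% of all genes. In a fit over all genes with at least 1 count, which takes in 56 of the 57, 26 were called higher and 6 lower, beside 17.4% and 16.6% of all genes. By role, 17 of 25 tested ligands rose and 3 fell, 4 of 6 tested receptors rose and 1 fell, and 2 of 3 tested atypical receptors rose. All 10 tested CXC ligands rose, while 6 of 13 tested CC ligands rose and 3 fell. Of the 10, Cxcl1, Cxcl3, Cxcl11 and Cxcl17 were below an FPKM of 1 in every sham library. So were Ccl1, Ccl11 and Ccl19 of the 13. They passed the filter only through the injured animals, so the CXC and CC counts are given as descriptions. Macrophage markers moved with the chemokine system genes. Of 15 such markers, 14 rose in SNI, and their summed FPKM was 560.2 to 624 in sham and 1222 to 1269 in SNI, with no marker at 0 in all libraries. Most of this sum was Lyz2, at 340 to 379 in sham and 738 to 766 in SNI. The estimated counts of Lyz2 were not whole numbers in any library. The T cell list rose in 4 of 7 tested markers, with a summed FPKM between 16.4 and 18.3 in sham and between 35.0 and 35.7 in SNI. Most of this sum was Cd4, at 12.0 to 12.5 in sham and 25.6 to 26.4 in SNI. The estimated counts of Cd4 were not whole numbers in any library. Cd3d, Cd3g and Lck were not called, and no value of Cd3d, Cd3e or Cd3g exceeded 1.44. Of 12 sensory neuron markers, 9 fell and 2 rose (Tubb3 and Prph) in SNI. The part of these cells in the chemokine changes was not tested.

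Between SNI + G15 and SNI, called genes went both ways. Of the 34 tested genes, 4 were higher in SNI + G15 (Cxcl14, Ccl21, Ccl6 and Cxcl1), 7 were lower (Ccl5, Ccl11, Cxcl3, Cxcl9, Cxcl10, Cxcl12 and Cxcl13) and 23 were not called. That is 11.8% higher and 20.6% lower, beside 7.98% and 7.25% of all tested genes. Called changes of at least 1 on the log2 scale were 3 upward and 3 downward, where all genes gave 0.629% and 0.37%. The median log2 fold change was -0.25, and 0.0063 over all tested genes. The groups did not overlap in 6 genes upward and 11 downward, beside 17.3% and 21.0% of all genes. The 11 called genes that passed the filter were ligands, and 0 of 6 tested receptors and 0 of 3 tested atypical receptors were called, although a different response of ligands and receptors was not tested. Over all genes with at least 1 count, 5 of the 57 were called higher and 9 lower, beside 5.12% and 4.51% of all genes, and these took in the receptor Cxcr3 (lower) and the atypical receptor Ackr4 (higher). Short transcripts as a class were higher in SNI + G15. Among the 1477 tested genes of an effective length of at most 1000 bases, 23.7% were called higher and 1.96% lower, with a median log2 fold change of 0.22. Of the 34 chemokine system genes, 16 are as short, and of these 3 were called higher (Ccl6, Ccl21 and Cxcl1) and 3 lower (Ccl5, Ccl11 and Cxcl9). The part of transcript length in the rises was not tested. Macrophage markers were not lower in SNI + G15, with 4 of 15 called higher, 0 called lower and a summed FPKM of 1389 to 1436. Most of this sum was again Lyz2, at 869 to 892.

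Against sham, SNI + G15 had 17 of the 34 genes higher and 4 lower (Ccl5, Ccl21, Ccl24 and Cxcl10), beside 21.4% and 21.9% of all tested genes. Without SNI + G15 replicate 1, the number lower was 2. The groups did not overlap in 17 genes upward and 5 downward, where all genes gave 30.1% and 22.8%. Short genes as a class were higher here too. Of the 1477 tested genes of at most 1000 bases, 450 were called higher and 97 lower, with a median log2 fold change of 0.16. The part of transcript length was not tested. Each pair of these 3 comparisons shares 3 libraries, so their values are set side by side and no relation between them is drawn.

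**Figure D2:**
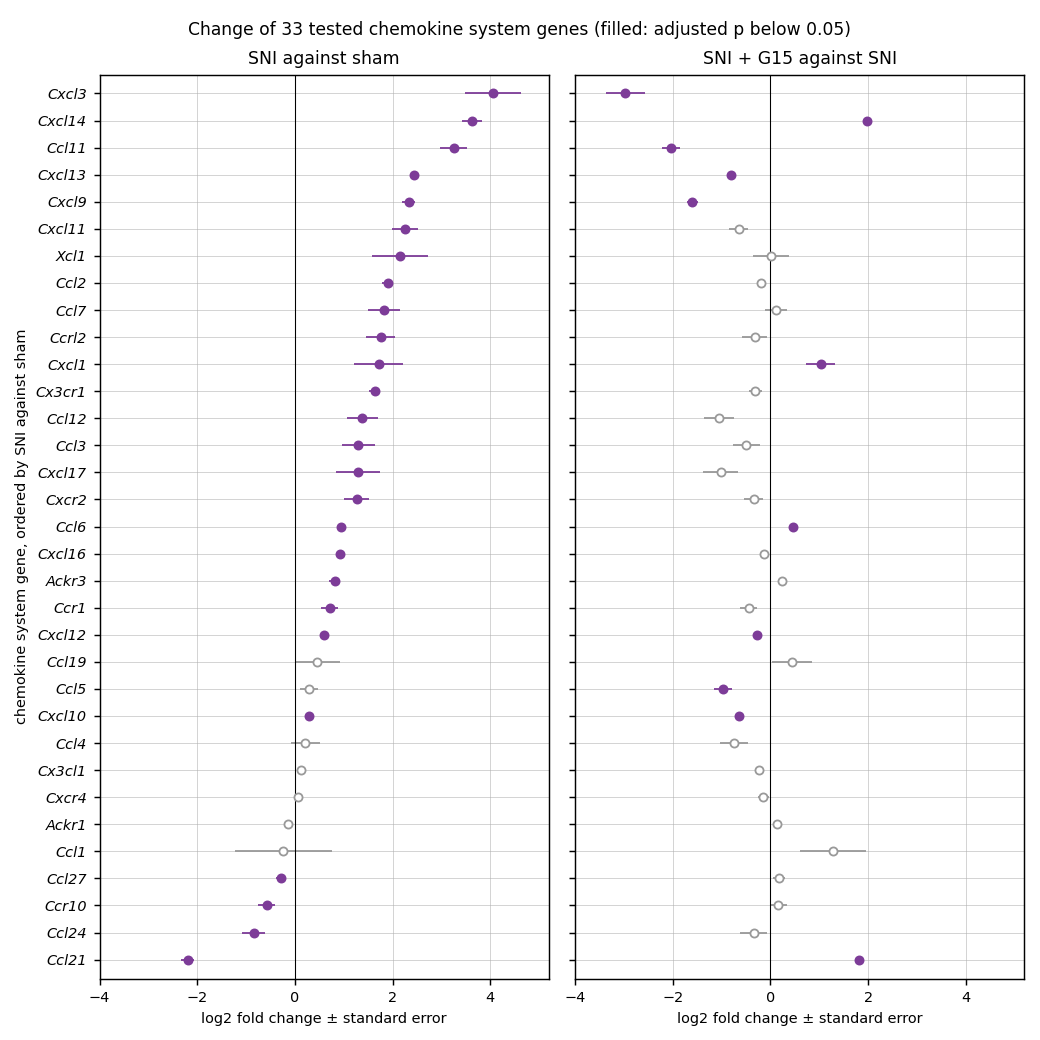
Log2 fold change with its standard error from edgeR for 33 tested chemokine system genes, in SNI against sham (left) and SNI + G15 against SNI (right), in the order of the left panel; filled points have an adjusted p below 0.05 and open points do not. On the left 22 filled points lie above 0 and 4 below, and on the right 4 lie above 0 and 7 below.

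Cxcl9, Cxcl10 and Cxcl11 encode the ligands of Cxcr3, a receptor of activated T and NK cells, and are textbook targets of interferon. They lie side by side on chromosome 14 in the RefSeq annotation of GRCr8, in the order Cxcl11, Cxcl10, Cxcl9. Their promoters, from 250 bases before to 50 bases after the annotated start, are shown because the 3 neighbours had log2 fold changes above 0 between SNI and sham and below 0 between SNI + G15 and SNI. Capitals mark matches, on either strand, to an interferon-stimulated response element (GAAA, repeated after a spacer of any 2 bases), an interferon-gamma activated site (TTCNNNGAA) or the NF-κB consensus, which occur in 3.92%, 8.87% and 4.18% of 33469 promoters of this length. The windows, from RefSeq GRCr8, are chr14:16006916-16007215 on the plus strand for Cxcl9, chr14:15988816-15989115 on the plus strand for Cxcl10 and chr14:15973478-15973777 on the plus strand for Cxcl11.
Cxcl9: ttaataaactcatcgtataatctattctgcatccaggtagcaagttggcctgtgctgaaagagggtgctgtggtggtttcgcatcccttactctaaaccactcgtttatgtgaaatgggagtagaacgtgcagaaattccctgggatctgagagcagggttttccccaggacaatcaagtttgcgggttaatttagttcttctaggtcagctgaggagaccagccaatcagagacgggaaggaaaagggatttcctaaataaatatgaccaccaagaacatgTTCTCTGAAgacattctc
Cxcl10: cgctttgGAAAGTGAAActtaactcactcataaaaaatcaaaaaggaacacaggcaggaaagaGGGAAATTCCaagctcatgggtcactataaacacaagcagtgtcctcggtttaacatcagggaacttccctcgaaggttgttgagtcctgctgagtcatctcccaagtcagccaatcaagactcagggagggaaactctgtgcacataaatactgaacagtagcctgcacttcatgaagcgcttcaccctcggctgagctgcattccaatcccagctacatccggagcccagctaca
Cxcl11: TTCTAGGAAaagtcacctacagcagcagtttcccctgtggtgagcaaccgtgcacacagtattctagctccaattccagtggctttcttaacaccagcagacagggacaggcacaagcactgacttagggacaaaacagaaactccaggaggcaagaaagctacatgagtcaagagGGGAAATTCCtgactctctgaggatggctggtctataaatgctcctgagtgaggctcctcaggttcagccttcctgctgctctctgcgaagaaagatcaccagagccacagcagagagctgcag
The Cxcl10 window held the response element 243 bases before the start and an NF-κB match 187 bases before it. The Cxcl11 window held an activated site at its first base and an NF-κB match 74 bases before the start, and the Cxcl9 window held an activated site 32 bases after the start. Of the 57 genes, 43 have a promoter in the RefSeq table, and 2 of the 43 held the response element, 6 the activated site and 8 the NF-κB consensus. A match shows only that these letters occur there.

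All 3 Cxcr3 ligands were higher after injury, and between the injured groups Cxcl9 and Cxcl10 were lower in SNI + G15. Cxcl9 had an FPKM of 4.21, 4.78 and 5.61 in the sham libraries, 23.5, 28.1 and 23.3 in SNI and 8.91, 8.21 and 7.27 in SNI + G15. The 3 groups were fully separated, with SNI highest and sham lowest. Cxcl9 rose 5.01-fold in SNI (log2 fold change 2.33, standard error 0.13, adjusted p = 2.09e-07) and was 3.04-fold lower in SNI + G15 than in SNI (log2 fold change -1.60, standard error 0.11, adjusted p = 6.44e-05), where it remained above sham (log2 fold change 0.70, standard error 0.17, adjusted p = 0.00755). Cxcl10 had an FPKM of 9.44, 10.3 and 9.47 in the sham libraries, 11.4, 12.9 and 12.0 in SNI and 7.53, 7.84 and 7.72 in SNI + G15. Its groups were also separated, but SNI + G15 was the lowest, below every sham library. Cxcl10 rose in SNI (log2 fold change 0.28, standard error 0.076, adjusted p = 0.0112), a call lost with DESeq2 (adjusted p = 0.0797) and without SNI replicate 2 (adjusted p = 0.0539), and it was lower in SNI + G15 than in SNI (log2 fold change -0.64, standard error 0.075, adjusted p = 0.00102) and than in sham (log2 fold change -0.38, adjusted p = 0.00525). Cxcl11 had an FPKM of 0.890, 0.520 and 0.520 in the sham libraries, 3.17, 3.52 and 2.71 in SNI and 2.34, 1.67 and 1.90 in SNI + G15. The 3 groups did not overlap, and sham was lowest. Cxcl11 rose 4.75-fold in SNI (log2 fold change 2.25, standard error 0.27, adjusted p = 5.97e-05), while its difference between SNI + G15 and SNI missed the threshold (log2 fold change -0.65, standard error 0.20, adjusted p = 0.0555). That difference was called under 4 of 14 alternatives. These were edgeR without SNI + G15 replicate 1 (adjusted p = 0.0466) or with another filter (0.0456), and limma on FPKM at a pseudocount of 1 or 0.1 (0.0272 and 0.0278). Cxcl10 and Cxcl11 both lie within or across the gene Art3 in the annotation, and whether counting used strand is not given. Art3 had an FPKM of 69.6 to 77.8 in all libraries and was called in none of the comparisons.

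The interferon response moved with these ligands in SNI + G15. A list of 17 genes induced by interferon held 15 that fell from SNI to SNI + G15 and 12 that lay lower in SNI + G15 than in sham, beside 7.25% and 21.9% of all tested genes. The summed FPKM of the list was between 678 and 749 in sham, between 672 and 713 in SNI and between 528 and 573 in SNI + G15. Most of this sum was Ifi27, at 423 to 486, 380 to 413 and 350 to 394 in the same order. Ifi27 was not called between SNI + G15 and SNI, so the sum understates the list. In SNI against sham 6 of the 17 rose and 3 fell, where 23.3% and 22.4% of all tested genes did. The receptor Cxcr3 stayed below the filter, with an FPKM of 0.260, 0.550 and 0.390 in the sham libraries, 0.710, 0.970 and 0.750 in SNI and 0.260, 0.290 and 0.480 in SNI + G15. Over all genes with counts it was called higher in SNI than in sham (log2 fold change 0.98, adjusted p = 0.0324) and lower in SNI + G15 than in SNI (log2 fold change -1.21, adjusted p = 0.0385). Of the 6 genes of the NK cell list, Ncr1, Klrd1 and Prf1 were below the filter. The 3 tested markers rose in SNI and 1 fell in SNI + G15. Of these 3, Gzmb was at 0, 0.260 and 0 in sham and so passed only through the injured animals. Ncr1 overlapped between sham (0.480 to 0.670) and SNI (0.420 to 0.760). The summed FPKM of the 6 genes was 2.92 to 3.77, 7.49 to 9.96 and 6.39 to 7.61 in the 3 groups. Of 7 tested T cell markers, 2 were higher (Cd4 and Cd8a) and 2 lower (Cd3d and Cd3e) in SNI + G15. The part of interferon and of these cells in the ligand changes was not tested.

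Cxcl1, Cxcl2, Cxcl3 and Cxcl6 are the neutrophil attractants that act through Cxcr2, and their genes follow each other on chromosome 14 in the order Cxcl2, Cxcl1, Cxcl3, Cxcl6. All were near the lower limit of these libraries. The promoters of Cxcl1 and Cxcl2 are shown because both genes rose after injury and differed in direction in SNI + G15, while both windows hold a pair of overlapping NF-κB matches (in capitals), which start 84 and 83 bases before the start of Cxcl1 and 74 and 73 bases before that of Cxcl2. The Cxcl6 window, not shown, holds such a pair too, 88 and 87 bases before its start. The windows in GRCr8 are chr14:17479272-17479571 on the minus strand for Cxcl1 and chr14:17467206-17467505 on the minus strand for Cxcl2.
Cxcl1: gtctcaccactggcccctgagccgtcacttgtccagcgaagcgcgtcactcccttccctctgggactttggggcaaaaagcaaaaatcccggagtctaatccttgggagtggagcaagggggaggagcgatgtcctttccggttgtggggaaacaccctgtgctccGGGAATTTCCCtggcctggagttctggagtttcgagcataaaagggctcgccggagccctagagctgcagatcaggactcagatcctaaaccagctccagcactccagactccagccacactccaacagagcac
Cxcl2: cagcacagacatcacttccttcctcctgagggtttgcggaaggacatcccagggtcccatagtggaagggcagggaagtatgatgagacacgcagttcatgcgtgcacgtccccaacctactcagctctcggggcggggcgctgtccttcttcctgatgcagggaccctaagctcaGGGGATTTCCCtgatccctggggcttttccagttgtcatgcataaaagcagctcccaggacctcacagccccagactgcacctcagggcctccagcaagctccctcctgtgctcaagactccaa
Cxcl3 had an FPKM of 0, 0.170 and 0.0900 in the sham libraries, 1.01, 1.45 and 1.0 in SNI and 0.0900, 0.180 and 0.160 in SNI + G15. SNI stood alone, and the other 2 groups overlapped. The counts behind these values were 0, 2 and 2 in sham, 20, 32 and 22 in SNI and 2, 4 and 3 in SNI + G15, so the SNI to sham ratio was 18.5, with a 95% counting interval from 6.93 to 69.7, and the SNI + G15 to SNI ratio was 0.122, with a 95% counting interval from 0.0535 to 0.244. Both differences passed the test (adjusted p = 2.08e-04 and 0.00203, edgeR), and SNI + G15 against sham did not (adjusted p = 0.391). Cxcl3 reached an FPKM of 1 in SNI alone, so it passed the filter only through the group where it was highest. Both calls held under all 14 alternatives, among them the fit over all genes with counts, which has no such filter.

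Cxcl2, below the filter, followed Cxcl3 with 0, 2 and 0 counts in sham, 11, 9 and 12 in SNI and 4, 3 and 3 in SNI + G15. The SNI to sham ratio of its summed counts was 16.0, with a 95% counting interval from 4.08 to 138. In the fit over all genes with counts it was called higher in SNI than in sham (adjusted p = 0.00255) and lower in SNI + G15 than in SNI (adjusted p = 0.0339). Cxcl1 went the other way in SNI + G15. It had 2, 3 and 4 counts in sham, 11, 8 and 12 in SNI and 23, 18 and 22 in SNI + G15, in 3 groups that did not overlap. The SNI to sham ratio was 3.44, with a 95% counting interval from 1.60 to 8.22, and that of SNI + G15 to SNI was 2.03, with a 95% counting interval from 1.30 to 3.23. Cxcl1 passed the test in both (adjusted p = 0.0168 and 0.0498, edgeR). It was below an FPKM of 1 in every sham and SNI library and so passed the filter only through SNI + G15, where it was highest. The fit over all genes with counts, which has no such filter, also called both (adjusted p = 0.0144 and 0.0483). The call in SNI was lost with DESeq2 and without SNI replicate 1 or 3 (adjusted p from 0.0535 to 0.0722), and the call between SNI + G15 and SNI was lost when any one of the 6 libraries was left out (adjusted p from 0.0690 to 0.151). Cxcl6 stayed below an FPKM of 1 in all libraries and was not called. Cxcr2, the receptor of these ligands, is described with the receptors. Of 10 tested neutrophil markers, 8 rose in SNI, and their summed FPKM was between 154 and 183 in sham, between 249.9 and 286 in SNI and between 263 and 306 in SNI + G15, where 1 was called higher than in SNI. The part of neutrophils was not tested.

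The remaining CXC ligands of the 57 genes were Cxcl12, Cxcl13, Cxcl14, Cxcl16 and Cxcl17, and all rose in SNI. Cxcl14, a chemokine of epithelia and stroma, had an FPKM of 0.370, 1.0 and 0.670 in the sham libraries, 8.83, 8.11 and 9.06 in SNI and 33.9, 34.7 and 33.3 in SNI + G15. The groups formed 3 separate steps, and the highest SNI library was far below the lowest SNI + G15 library. Cxcl14 was 12.4-fold higher in SNI than in sham (log2 fold change 3.63, standard error 0.20, adjusted p = 2.22e-07) and a further 3.96-fold higher in SNI + G15 than in SNI (log2 fold change 1.98, standard error 0.059, adjusted p = 4.29e-07). The difference between SNI + G15 and sham was 48.3-fold (log2 fold change 5.59, standard error 0.16, adjusted p = 9.91e-09). Fibroblast markers were also higher in SNI + G15 than in SNI, in 8 of 8 genes, with a summed FPKM between 486 and 496 in sham, between 466 and 469 in SNI and between 632 and 653 in SNI + G15. In SNI, where Cxcl14 had already risen, 2 of the 8 rose and 3 fell. The part of these cells was not tested.

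Cxcl13 had an FPKM of 11.7, 14.1 and 11.4 in the sham libraries, 70.6, 68.0 and 68.4 in SNI and 40.0, 40.2 and 37.1 in SNI + G15. It was highest in SNI and intermediate in SNI + G15, without overlap. It rose 5.43-fold in SNI (log2 fold change 2.44, standard error 0.071, adjusted p = 1.46e-09). In SNI + G15 it was 1.75-fold lower than in SNI (log2 fold change -0.81, standard error 0.049, adjusted p = 2.87e-05) and 3.05-fold above sham (log2 fold change 1.61, standard error 0.085, adjusted p = 5.04e-07). B cell markers, the targets of Cxcl13 through Cxcr5, were near 0 in all groups (summed FPKM of 1.57 to 2.31 for 6 genes), and 1 of them passed the filter and was not called. Cxcr5 itself was below the filter, at an FPKM of 0.240 to 0.840 over the 9 libraries. Cxcl16, a membrane-bound chemokine and scavenger receptor, had an FPKM of 14.5, 15.9 and 16.4 in the sham libraries, 31.4, 30.1 and 28.8 in SNI and 29.1, 26.1 and 26.5 in SNI + G15. Both injured groups lay above sham and overlapped each other. Cxcl16 rose 1.89-fold in SNI (log2 fold change 0.92, standard error 0.061, adjusted p = 7.77e-07), and the injured groups were not called apart (log2 fold change -0.13, standard error 0.058, adjusted p = 0.156). Cxcl17, a mucosal chemokine, had an FPKM of 0.700, 0.970 and 0.210 in the sham libraries, 2.09, 1.39 and 1.26 in SNI and 1.05, 0.490 and 0.760 in SNI + G15. SNI lay above both other groups, which overlapped, and it was called only between SNI and sham (adjusted p = 0.0404), a call that was lost when any one of sham replicates 1 and 3 or SNI replicates 1 and 2 was left out (adjusted p from 0.0656 to 0.141).

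**Figure D3:**
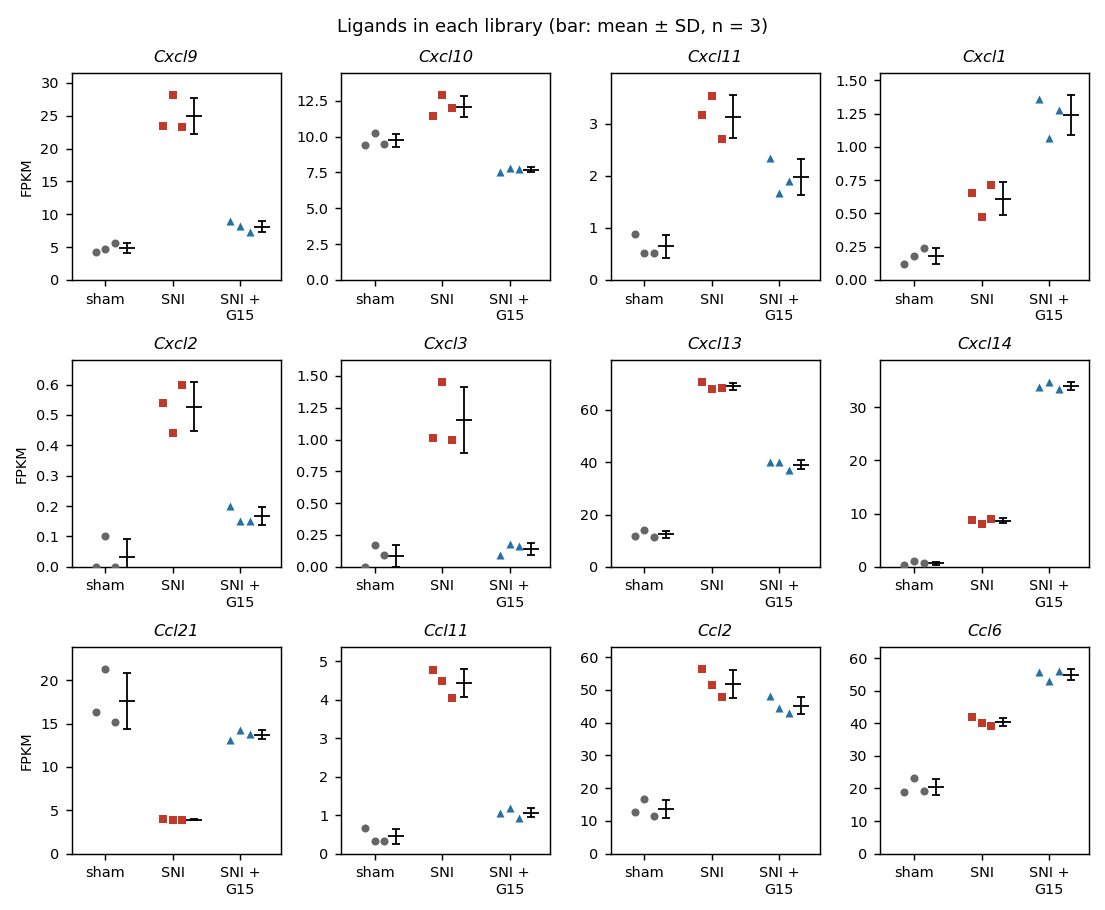
FPKM of 12 ligands in each library (y axes in FPKM, starting at 0), with sham as grey circles, SNI as red squares and SNI + G15 as blue triangles, and the mean ± SD of the 3 libraries as a bar beside them (bars reaching below 0 are cut at 0). Cxcl9, Cxcl2, Cxcl3, Cxcl13 and Ccl11 peak in SNI, Cxcl1, Cxcl14 and Ccl6 are highest in SNI + G15, Ccl21 is lowest in SNI, and Cxcl10 is lowest in SNI + G15.

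Cxcl12, the ligand of Cxcr4 and Ackr3 that holds leukocytes and guides neural precursors, had an FPKM of 7.82, 7.93 and 7.19 in the sham libraries, 11.6, 10.6 and 11.0 in SNI and 11.2, 9.56 and 10.9 in SNI + G15. Sham lay below both injured groups, and these overlapped in FPKM. Cxcl12 rose 1.51-fold in SNI (log2 fold change 0.59, standard error 0.060, adjusted p = 1.97e-05). In the counts it was lower in SNI + G15 than in SNI (log2 fold change -0.27, standard error 0.058, adjusted p = 0.0167), but not when FPKM was tested with limma (log2 fold change -0.07, adjusted p = 0.532 at a pseudocount of 0.1) or in edgeR without SNI replicate 1 or 3 (adjusted p = 0.0696 and 0.0702). Its counts were not whole in any library, which arises where reads are shared between transcripts or similar sequences. The deposited transcript table splits Cxcl12 into 3 transcripts. NM_022177, which held the most, made up between 44.1% and 49.4% of the FPKM in sham, between 41.8% and 43.3% in SNI and between 52.0% and 58.7% in SNI + G15. NM_001033883 made up 21.2% to 30.1%, 29.7% to 32.0% and 13.6% to 25.4%, and NM_001033882 made up 25.2% to 30.9%, 24.9% to 28.5% and 18.9% to 34.4%. The share of NM_022177 was thus highest in SNI + G15 without overlap. These shares are the authors' estimates and were not tested.

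**Figure D4:**
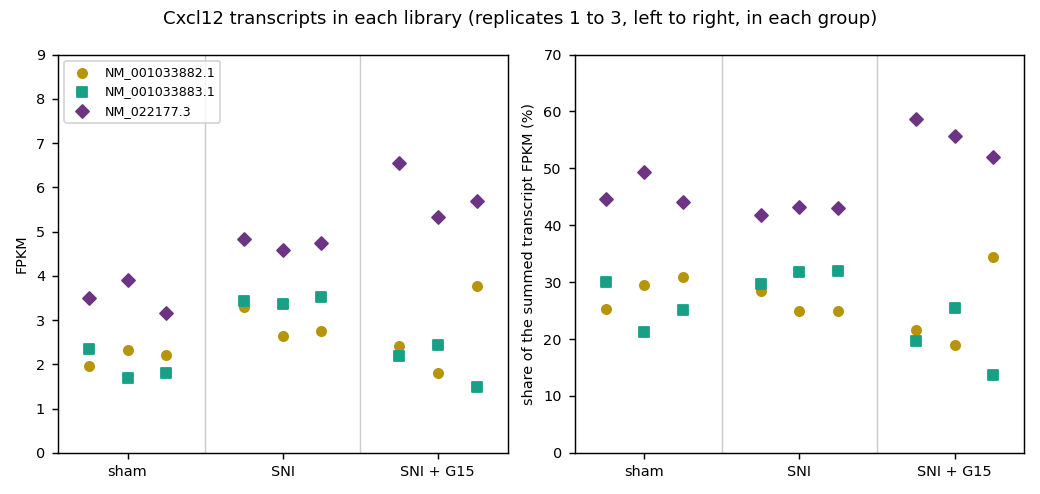
FPKM (left) and share of the summed transcript FPKM in percent (right) of the 3 Cxcl12 transcripts in each library, by group. NM_022177 (diamonds) lies at 52.0% to 58.7% in SNI + G15 and at no more than 49.4% in the other groups.

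Among CC ligands, the monocyte attractants Ccl2, Ccl7 and Ccl12 lie together on chromosome 10, and all were higher after injury. Ccl2 had an FPKM of 12.8, 16.6 and 11.3 in the sham libraries, 56.3, 51.5 and 47.7 in SNI and 48.2, 44.4 and 43.0 in SNI + G15. The injured groups lay far above sham and overlapped each other. Ccl2 rose 3.74-fold in SNI (log2 fold change 1.90, standard error 0.11, adjusted p = 3.41e-07), and the injured groups differed by a log2 fold change of -0.19 without passing the test (standard error 0.072, adjusted p = 0.115). Ccl7 had an FPKM of 1.59, 0.680 and 1.03 in the sham libraries, 2.81, 5.33 and 3.85 in SNI and 4.61, 3.86 and 4.34 in SNI + G15. It rose 3.55-fold in SNI (adjusted p = 0.00118) and was 3.76-fold above sham in SNI + G15 (adjusted p = 3.67e-04), and the injured groups overlapped. Ccl12 had an FPKM of 1.58, 1.78 and 0.840 in the sham libraries, 4.40, 3.45 and 3.37 in SNI and 2.42, 1.90 and 1.04 in SNI + G15. Here SNI stood above both other groups, which overlapped. Ccl12 rose 2.61-fold in SNI (adjusted p = 0.00443), and its difference between SNI + G15 and SNI lay at the threshold (log2 fold change -1.05, standard error 0.31, adjusted p = 0.0524) and was called under 5 of 14 alternatives, among them the fit without SNI + G15 replicate 1 (adjusted p = 0.0380).

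Ccl11, the eotaxin that acts on eosinophils through Ccr3, is the neighbour of Ccl7 and Ccl12 on chromosome 10. Its FPKM was 0.680, 0.340 and 0.340 in the sham libraries, 4.77, 4.48 and 4.05 in SNI and 1.07, 1.18 and 0.940 in SNI + G15. The groups were separated, with SNI highest. Ccl11 rose 9.54-fold in SNI (log2 fold change 3.25, standard error 0.27, adjusted p = 4.64e-06), was 4.10-fold lower in SNI + G15 than in SNI (log2 fold change -2.04, standard error 0.19, adjusted p = 2.86e-04), and its remaining difference from sham (adjusted p = 0.0271) was lost with DESeq2 and without any one of 4 libraries, sham replicates 2 and 3 and SNI + G15 replicates 1 and 2 (adjusted p from 0.0631 to 0.0881 over these). Ccl24, the second eotaxin, went down instead. Its FPKM was 1.75, 2.40 and 2.55 in the sham libraries, 1.26, 0.900 and 1.47 in SNI and 1.03, 1.24 and 0.830 in SNI + G15, with sham above both injured groups, which overlapped. It was lower in SNI (log2 fold change -0.84, adjusted p = 0.0135), a call lost without sham replicate 3 (adjusted p = 0.0575), and lower in SNI + G15 than in sham (log2 fold change -1.21, adjusted p = 0.00300). Its counts were not whole in any library and its value is uncertain. Ccl26 had at most 1 count in a library.

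The inflammatory ligands Ccl3, Ccl4, Ccl5, Ccl6 and Ccl9 differed from one another. Ccl6 had an FPKM of 18.9, 23.3 and 19.1 in the sham libraries, 41.9, 40.1 and 39.3 in SNI and 55.8, 53.0 and 56.0 in SNI + G15. The groups rose in 3 steps without overlap. Ccl6 was 1.93-fold higher in SNI than in sham (log2 fold change 0.95, standard error 0.096, adjusted p = 1.86e-05) and 1.37-fold higher in SNI + G15 than in SNI (log2 fold change 0.46, standard error 0.063, adjusted p = 0.00229). Ccl5 had an FPKM of 3.39, 4.25 and 4.36 in the sham libraries, 5.26, 4.65 and 5.07 in SNI and 2.59, 2.49 and 2.45 in SNI + G15. SNI + G15 was lowest, below every sham library, and Ccl5 was lower there than in SNI (log2 fold change -0.97, standard error 0.19, adjusted p = 0.0104). Its difference from sham (log2 fold change -0.71, adjusted p = 0.0235) was lost with DESeq2 and without any one of 5 libraries, all but sham replicate 1 (adjusted p from 0.0534 to 0.0886). Every SNI library lay above every sham library, but the difference between SNI and sham was not called (log2 fold change 0.29, adjusted p = 0.243). It was called with limma on FPKM at a pseudocount of 1 or 0.1 (adjusted p = 0.0384 and 0.0413). Ccl3 had an FPKM of 0.620, 1.07 and 0.660 in the sham libraries, 2.33, 1.98 and 1.62 in SNI and 1.69, 1.48 and 1.02 in SNI + G15. It rose in SNI (log2 fold change 1.30, adjusted p = 0.00926), and SNI + G15 overlapped both groups. Ccl4 was at an FPKM of 1.10 to 2.62 in all libraries, with no call in any comparison. The counts of Ccl3 and Ccl4 were not whole in 4 libraries each and are uncertain. Ccl9 stayed below the filter at an FPKM of 0.200 to 0.790, highest in the 3 SNI + G15 libraries.

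Homeostatic CC ligands held 2 of the 4 genes that fell in SNI, Ccl21 and Ccl27. Ccl21, which draws T cells and dendritic cells to lymphoid tissue through Ccr7, had an FPKM of 16.4, 21.3 and 15.2 in the sham libraries, 3.95, 3.94 and 3.83 in SNI and 13.2, 14.2 and 13.8 in SNI + G15. SNI lay far below both other groups, and SNI + G15 lay just below sham. Ccl21 was 4.59-fold lower in SNI than in sham (log2 fold change -2.20, standard error 0.14, adjusted p = 6.23e-07), 3.54-fold higher in SNI + G15 than in SNI (adjusted p = 1.50e-05), and lower in SNI + G15 than in sham by a margin (log2 fold change -0.40, adjusted p = 0.0231) that was lost without sham replicate 2 or SNI + G15 replicate 1 (adjusted p = 0.0632 and 0.0719). Lyve1, a marker of lymphatic vessels and some macrophages, had an FPKM of 3.25, 3.35 and 2.81 in the sham libraries, 2.01, 2.27 and 2.47 in SNI and 5.12, 4.79 and 5.67 in SNI + G15. It fell in SNI and was highest in SNI + G15, each without overlap, and its counts were not whole in any library. The list of 4 lymphatic markers had a summed FPKM of 48.2 to 50.3, 65.9 to 69.0 and 71.1 to 73.3 in the 3 groups, with 2 of them below the filter, and Pdpn rose in SNI. The part of lymphatic vessels in Ccl21 was not tested. Ccl27, a skin chemokine, was at an FPKM of 10.6 to 13.4 and was called lower in SNI (log2 fold change -0.29, adjusted p = 0.0306), a call lost under 7 of 14 alternatives, among them the fits without any one of sham replicates 1 and 2 or of the 3 SNI libraries (adjusted p from 0.0586 to 0.0864). It overlaps Il11ra1, which also fell in SNI (log2 fold change -0.43, adjusted p = 0.000216). Ccl19 and Ccl1 were called in no comparison, at FPKM values of 0.310 to 1.41 and 0 to 1.02.

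Xcl1, the lymphotactin of NK and CD8 T cells, had 2, 2 and 1 counts in sham, 9, 7 and 8 in SNI and 9, 7 and 8 in SNI + G15. Both injured groups lay above sham and had the same total of 24 counts. The SNI to sham ratio was 4.80, with a 95% counting interval from 1.79 to 16.1. The rise in SNI was called by edgeR (adjusted p = 0.0115) and not by DESeq2 (adjusted p = 0.0604), and that in SNI + G15 (adjusted p = 0.0145) was lost with DESeq2 and without sham replicate 3 or SNI + G15 replicate 1 (adjusted p from 0.0516 to 0.0600). Its receptor Xcr1 stayed at an FPKM of at most 0.0900. Cx3cl1, or fractalkine, a membrane-bound chemokine that neurons are known to carry, had an FPKM of 4.82, 4.51 and 5.06 in the sham libraries, 4.76, 5.70 and 5.70 in SNI and 4.79, 4.75 and 4.10 in SNI + G15. The groups overlapped in every comparison, and neither SNI against sham (log2 fold change 0.13, standard error 0.085, adjusted p = 0.236) nor SNI + G15 against SNI (log2 fold change -0.23, standard error 0.092, adjusted p = 0.118) was called.

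Of the 6 tested receptors, 4 rose in SNI, among them Cx3cr1, Ccr1 and Cxcr2, and none of the 6 was called between SNI + G15 and SNI. Cx3cr1, the fractalkine receptor of macrophages and microglia, had an FPKM of 2.45, 3.04 and 2.63 in the sham libraries, 8.74, 7.79 and 9.03 in SNI and 7.33, 7.78 and 5.26 in SNI + G15. Both injured groups lay above sham. Cx3cr1 rose 3.10-fold in SNI (log2 fold change 1.63, standard error 0.12, adjusted p = 1.26e-06), and all 3 SNI + G15 libraries lay below all 3 SNI libraries without a call (log2 fold change -0.31, standard error 0.13, adjusted p = 0.145). Ccr1 had an FPKM of 1.38, 1.17 and 1.28 in the sham libraries, 1.88, 2.50 and 2.01 in SNI and 1.77, 1.54 and 1.34 in SNI + G15. It rose 1.64-fold in SNI (adjusted p = 0.00650), and the SNI + G15 libraries lay below all SNI libraries without a call (log2 fold change -0.45, adjusted p = 0.120). The counts of Cx3cr1 were not whole in any library and those of Ccr1 in 6 of 9, so the values are uncertain.

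Cxcr2, the receptor of the neutrophil attractants, had an FPKM of 0.330, 0.530 and 0.350 in the sham libraries, 0.910, 1.38 and 1.31 in SNI and 1.07, 1.06 and 0.630 in SNI + G15. Sham lay below both injured groups, which overlapped. Cxcr2 rose 2.40-fold in SNI (log2 fold change 1.26, standard error 0.25, adjusted p = 0.00216), and its difference between SNI + G15 and sham (adjusted p = 0.0225) was lost when any one of sham replicates 1 and 3 or SNI + G15 replicates 1 and 2 was left out (adjusted p from 0.0656 to 0.0742). Cxcr4, the receptor of Cxcl12, had an FPKM of 7.09, 7.72 and 7.04 in the sham libraries, 7.68, 8.73 and 6.97 in SNI and 7.51, 6.19 and 7.26 in SNI + G15. All groups overlapped, and no comparison called it, with log2 fold change 0.07, standard error 0.090, adjusted p = 0.564 for SNI against sham and log2 fold change -0.14, standard error 0.10, adjusted p = 0.368 for SNI + G15 against SNI. Ccr10, the receptor of Ccl27, was at an FPKM of 1.34 to 2.23 and fell in SNI (log2 fold change -0.58, adjusted p = 0.0201), a call that was lost with DESeq2 and without sham replicate 1 or 3 (adjusted p from 0.0576 to 0.0803). It overlaps Cntnap1, which fell in SNI as well (log2 fold change -0.24, adjusted p = 0.00156).

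The 3 tested atypical receptors did not move together. Ackr3, the scavenger of Cxcl12, had an FPKM of 3.54, 3.37 and 3.08 in the sham libraries, 6.19, 6.45 and 5.13 in SNI and 6.83, 7.17 and 6.84 in SNI + G15. Sham was lowest and SNI + G15 highest, without overlap. Ackr3 rose 1.75-fold in SNI (log2 fold change 0.81, standard error 0.10, adjusted p = 1.06e-04) and was 2.03-fold above sham in SNI + G15 (log2 fold change 1.02, standard error 0.088, adjusted p = 1.16e-05), and the difference between the injured groups was not called (log2 fold change 0.23, standard error 0.088, adjusted p = 0.106). Ccrl2, which presents chemerin and was once grouped with the chemokine receptors, had an FPKM of 0.390, 0.390 and 0.350 in the sham libraries, 1.07, 1.52 and 0.930 in SNI and 1.03, 1.07 and 0.770 in SNI + G15. It rose 3.37-fold in SNI (log2 fold change 1.75, standard error 0.30, adjusted p = 6.97e-04), and the injured groups overlapped. Ackr1 had an FPKM of 48.8, 43.2 and 47.7 in the sham libraries, 40.5, 43.5 and 46.1 in SNI and 46.9, 47.0 and 47.6 in SNI + G15, and was not called between SNI and sham (log2 fold change -0.13, standard error 0.062, adjusted p = 0.105). All 3 SNI + G15 libraries lay above all 3 SNI libraries without a call (log2 fold change 0.14, adjusted p = 0.137). Without sham replicate 2, the lowest of its group, Ackr1 was called lower in SNI (adjusted p = 0.0287). Over the same libraries the 6 erythroid genes rose in SNI and fell in SNI + G15, with a summed FPKM between 97.3 and 101 in sham, between 326 and 334 in SNI and between 194 and 228 in SNI + G15. Most of this sum was Hbb, at 86.3 to 90.9, 284 to 292 and 175 to 210 in the same order, and its counts were not whole in any library. The part of erythroid cells in Ackr1 was not tested. Ackr2 and Ackr4, scavengers of CC chemokines, were below the filter, and Ackr4 takes up Ccl19 and Ccl21. Ackr4 had an FPKM of 0.720, 0.750 and 0.750 in the sham libraries, 0.310, 0.270 and 0.210 in SNI and 0.470, 0.530 and 0.510 in SNI + G15. It was lowest in SNI without overlap, and over all genes with counts it was called lower in SNI than in sham (log2 fold change -1.51, adjusted p = 7.56e-04) and higher in SNI + G15 than in SNI (log2 fold change 1.01, adjusted p = 0.0486). Its counts were not whole in any library and it overlaps Acad11 in the annotation, so its values are uncertain. Acad11 had an FPKM of 2.84 to 3.37 and was called in none of the comparisons. Ackr2 had an FPKM of 0.390, 0.420 and 0.360 in the sham libraries, 0.110, 0.0700 and 0.180 in SNI and 0.260, 0.150 and 0.140 in SNI + G15, and was called lower in SNI in the same fit (log2 fold change -1.74, adjusted p = 0.00262).

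**Figure D5:**
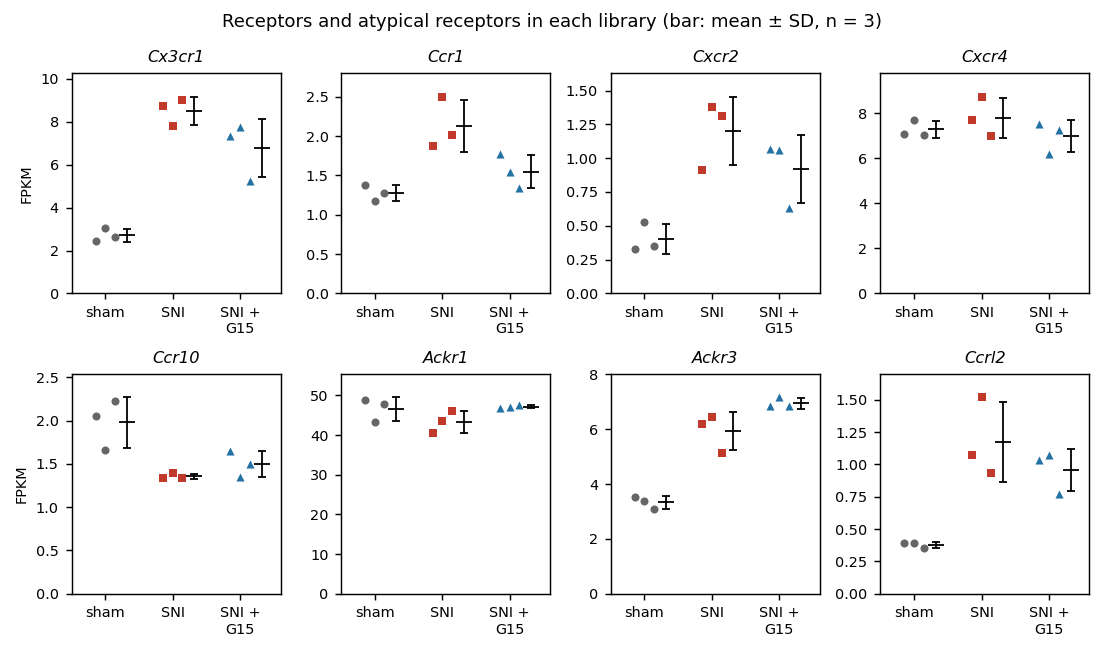
FPKM of 5 receptors and 3 atypical receptors in each library (y axes in FPKM, starting at 0), with sham as grey circles, SNI as red squares and SNI + G15 as blue triangles, and the mean ± SD of the 3 libraries beside them. Cx3cr1, Cxcr2, Ackr3 and Ccrl2 are higher in both injured groups than in sham. The groups of Cxcr4 and Ackr1 lie at like levels, with the SNI + G15 triangles of Ackr1 above its SNI squares.

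Besides Ackr2 and Ackr4, the genes below the filter were 12 receptors (Ccr1l1, Ccr3, Ccr4, Ccr6, Ccr7, Ccr8, Ccr9, Cxcr1, Cxcr3, Cxcr5, Cxcr6 and Xcr1) and 9 ligands (Ccl9, Ccl17, Ccl20, Ccl22, Ccl25, Ccl26, Ccl28, Cxcl2 and Cxcl6). Over all genes with counts, Ccl22, a ligand of Ccr4, was called higher in SNI than in sham, with 2, 3 and 3 counts in sham, 10, 9 and 9 in SNI and 6, 2 and 2 in SNI + G15 (log2 fold change 1.73, adjusted p = 0.0129). Cxcr5 was called higher in SNI + G15 than in sham (log2 fold change 0.74, adjusted p = 0.0466). Its summed counts were not whole in any group and it overlaps Bcl9l in the annotation, so its values are uncertain. Bcl9l had an FPKM of 6.29 to 8.12 and was called in none of the comparisons. Ccr7, the receptor of Ccl21, had 2, 3 and 3 counts in sham, 8, 4 and 5 in SNI and 3, 0 and 1 in SNI + G15 and was not called. Ccl20 had 9 counts over the SNI + G15 libraries, 0 in SNI and 2 in sham. At such counts no difference could be detected unless it was large.

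Of 65 other genes of chemokine signalling (mostly G protein subunits, kinases, arrestins, small GTPases, transcription factors and regulators of G protein signalling), 63 were tested. The list also held the chemokines Pf4 and Ppbp, which the symbol rule does not take, and Mif and Dpp4. Ppbp was below the filter, and Pf4 was among the genes higher in SNI than in sham. In SNI against sham 40 were higher and 8 lower, where 23.3% and 22.4% of all tested genes were, with a median log2 fold change of 0.25. The smallest adjusted p upward belonged to Arrb1, an arrestin (log2 fold change 0.75, adjusted p = 5.07e-08), Jak2, a kinase (log2 fold change 1.07, adjusted p = 9.43e-08), and Rac2, the small GTPase of blood cells (log2 fold change 1.19, adjusted p = 9.20e-07). The smallest downward belonged to Plcb3, a phospholipase (log2 fold change -0.21), Elmo1, a partner of Dock2 (log2 fold change -0.22), and the adhesion adaptor Pxn (log2 fold change -0.22). Each of these 3 downward changes was smaller in size than each of the 3 upward. In SNI + G15 against SNI 1 gene was higher, Pxn (log2 fold change 0.22, adjusted p = 0.0453), and 7 were lower, beside 7.98% and 7.25% of all tested genes, with a median of -0.05. The 8 calls became 2 without SNI replicate 1 or 3, 3 without SNI replicate 2 and 4 without SNI + G15 replicate 2. Pxn was called in none of the fits without SNI replicate 1, 2 or 3 or SNI + G15 replicate 1 or 2 (adjusted p from 0.0861 to 0.158). Among the 7 lower genes were Stat2 (log2 fold change -0.52, adjusted p = 1.28e-04) and Elmo1 (log2 fold change -0.29, adjusted p = 0.0170), and the call of Elmo1 was lost without SNI replicate 1 or 3 (adjusted p = 0.0657 and 0.0740). Against sham SNI + G15 had 30 higher and 11 lower (6 without sham replicate 3 or SNI + G15 replicate 2), beside 21.4% and 21.9% of all tested genes, with Fgr (log2 fold change 1.63), Rgs2 (0.92) and Jak2 (0.97) first among those higher and Elmo1 (-0.53), Plcb3 (-0.32) and Stat2 (-0.31) among those lower.

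Neighbouring genes did not always share a direction. On chromosome 10, the adjacent Ccl2, Ccl7, Ccl11 and Ccl12 all rose in SNI, but only Ccl11 was called between SNI + G15 and SNI, with log2 fold changes of -0.19, 0.11, -2.04 and -1.05. In the block of Ccl5, Ccl9, Ccl6, Ccl3 and Ccl4 on the same chromosome, Ccl5 was lower and Ccl6 higher in SNI + G15 than in SNI (-0.97 and 0.46). On chromosome 5, Ccl27 and Ccl19, listed beside Ccl21, had values of 0.18 and 0.45 in that comparison, where Ccl21 had 1.82. On chromosome 14, Cxcl9, Cxcl10 and Cxcl11 had -1.60, -0.64 and -0.65, and Cxcl1 and Cxcl3 had 1.03 and -2.98. Positions are the order in RefSeq GRCr8, which is not the build of the deposited values.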

How the data were processed

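RNA-Seq was done on dorsal root ganglia of sham, SNI and SNI + G15 rats, with 3 libraries per group. The authors deposited estimated counts and FPKM per gene and per transcript in tables of the whole series, a gene's FPKM being the sum over its transcripts. The aligner, the counting and its use of strand are not given in the sources used here. The submitters' processing notes list the mouse builds GRCm38 and mm10, although the gene identifiers are of the rat (57 of the 57 genes described, and 18599 of all 20194, matched RefSeq GRCr8). Columns named control were taken as sham. The 9 columns of TPM per gene, and the 18 of TPM and counts per transcript, were not used. The labels' extraction text differs from the methods, which describe ganglia.

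The deposited expected counts, made whole by rounding, went into edgeR 4.0.16 (TMM scaling, quasi-likelihood test) for 14305 genes that reached an FPKM of 1 in any library, each comparison with its own 6 libraries, and p-values were adjusted by Benjamini-Hochberg. This filter follows the study's methods. Levels are the deposited FPKM. Alternatives were DESeq2 1.42.0, other scaling and filters, limma 3.58.1 on log2(FPKM + 1) and log2(FPKM + 0.1), all 9 libraries in 1 fit, a replicate block and leaving out each library. The scripts were tested on simulated data. Ratios of summed counts carry exact (Clopper-Pearson) 95% intervals that cover counting error only.

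Values in all libraries are given for genes called with a log2 fold change of at least 1 in at least 1 comparison, for Ccl2, Cx3cl1, Cx3cr1, Cxcl12, Cxcr4 and Ackr3, and for further genes chosen after their values were seen. Some genes that this rule or the next one takes in are not reported here. Of the other signalling genes, the 3 of smallest adjusted p are named for each direction and comparison. The genes, lists and tests were chosen with earlier results of these data known.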

Additional observations from a re-analysis of the deposited data

How the results depend on the processing

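Over the 34 tested chemokine system genes and the named signalling genes, in all 118 log2 fold changes with 1642 alternative values, 1545 kept their direction and their side of the threshold, 64 lost a call, 16 gained one and 17 turned in sign, none of these called. Among the chemokine system genes, the calls lost most often were those of Cxcl1 in SNI + G15 against SNI (under 8 of 14 alternatives), Ccl27 in SNI against sham (7 of 14) and, in SNI + G15 against sham, Ccl5 (6 of 14) and Ccl11 (5 of 14). The values that turned were, in SNI against sham, Ccl1 with limma at a pseudocount of 0.1 (log2 fold change 0.1989) and without sham replicate 3 or SNI replicate 3 (0.8932 and 0.0629, in a leave-one-out range from -0.799), and Cxcr4 without SNI replicate 2 (-0.0177, range up to 0.141), Ccl7 in SNI + G15 against SNI without SNI replicate 1 (-0.0895, range up to 0.370), Xcl1 in the same comparison with limma at a pseudocount of 1 (-0.000144) or 0.1 (-0.000359), without SNI replicate 2 (-0.0771) and without SNI + G15 replicate 1 (-0.0763, range up to 0.105), and, in SNI + G15 against sham, Cxcl17 without sham replicate 3 (-0.162) and without SNI + G15 replicate 1 (-0.0298, range up to 0.704), Ackr1 with limma at a pseudocount of 1 or 0.1 (0.0195 and 0.0199) and without sham replicate 1 or 3 (0.0108 and 0.000921, range from -0.0728), and Ccl4 with limma at a pseudocount of 1 or 0.1 (0.00558 and 0.0163).

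Of the chemokine system genes, 4 were lower in SNI than in sham, 2 with DESeq2 and 2 to 4 when 1 library was left out (2 without sham replicate 1 or 3). In SNI + G15 against sham 4 were lower, and 2 to 4 without 1 library (2 without SNI + G15 replicate 1). The signalling genes called in SNI + G15 against SNI were 8 (1 higher, 7 lower), and rested on the setting. They were 5 with all genes of at least 1 count and with limma at either pseudocount (0 higher each), and 2 to 11 without 1 library (0 to 2 higher, 2 to 9 lower, with 2 in all without SNI replicate 1 or 3, 3 without SNI replicate 2 and 4 without SNI + G15 replicate 2). DESeq2 gave 2 higher and 4 lower, and 1 fit of all 9 libraries 3 higher. In SNI + G15 against sham, the 11 lower signalling genes were 7 with DESeq2 and with all genes, 5 with limma at either pseudocount, and 6 to 10 without 1 library (6 without sham replicate 3 or SNI + G15 replicate 2). The cause was not tested.

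Libraries share a replicate number, but their deviations from the group means correlated at only -0.125 to 0.0923 and at most 3 of 6 libraries in a comparison correlated best with the one of their own number, so the numbers were not taken as pairs. With the number as a replicate block, the signalling genes called in SNI + G15 against SNI were 3 (0 higher, 3 lower), Cxcl1 lost its call there (adjusted p = 0.0833), Ccl12 gained one (adjusted p = 0.0495), and Ccl27 lost its call in SNI against sham (adjusted p = 0.0636). Depth limits the genes of few counts, such as Cxcl1, Cxcl2, Cxcl3 and Xcl1. With 3 libraries per group, values that missed the threshold do not show that the groups were alike.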
